A study of Arabidopsis thaliana with 12 samples.

Results

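A group of 37 Arabidopsis thaliana genes differed in array signal between samples numbered 1 and 2 and samples numbered 5 and 6, in the psae2 mutant and in the wild type (WT) alike, while their overall psae2 minus WT difference stayed small. Members were chosen by the measured values themselves: probes annotated to 1 gene whose mean of numbers 1-2 minus mean of numbers 5-6 was at least 0.4 in size on the log2 scale, with the same sign in both genotypes, and whose overall psae2 minus WT mean was under 0.25 in size. They were 37 of the 692 probes of 1 gene, in a table of 3439 probes (5.35%). Of the 692, 17 were higher in numbers 1-2 (2.46%) and 20 were higher in numbers 5-6 (2.89%). Those differences chose the genes, so every difference between numbers 1-2 and 5-6 below is a description with no test.

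The study set 6 samples of psae2, an Arabidopsis line in ecotype Columbia 0 that per the labels has no PSI-E2 protein, against 6 WT samples of the same ecotype, as total RNA on arrays. Sample titles number the samples 1 to 6 within each genotype and do not say what a number marks, so numbers may stand for plants, harvests, hybridisations or repeats. Tissue, age and growth conditions have no entry in the labels, and 0 genes of the 5 marker lists (root, flower and seed, guard cell, phloem, leaf mesophyll) had a probe of their own, so the tissue was not checked against markers. PSI-E2 is a stromal subunit of photosystem I, the chloroplast complex that uses light to pass electrons from plastocyanin to ferredoxin. It helps to form the site where ferredoxin docks.

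Most members are known here by locus code. The reference table gives a symbol to 4 of the 37, namely SRX, LPA19, AT-HF and GH9B12, and clauses on what other loci encode are general background. Sulfiredoxin, encoded by SRX, restores 2-Cys peroxiredoxins that hydrogen peroxide has over-oxidised, and LPA19 is a Psb27-like lumen protein that takes part in maturing the D1 protein of photosystem II. AT-HF (HISN4) encodes the enzyme that closes the imidazole ring in histidine synthesis, and GH9B12 belongs to a family of glycosyl hydrolases that includes cell wall endoglucanases.

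Values below are normalized log2 intensities. In each sample, deposited intensities below a floor were set to it, log2-transformed and quantile-normalized over all probes, the floor being that sample's 5th percentile among values above 0. The deposited column medians were lower in each later set of numbers in both genotypes: they averaged 0.445 for numbers 1-2, 0.383 for 3-4 and 0.348 for 5-6 in psae2, and 0.379, 0.335 and 0.304 in the WT. As deposited, with no scaling between arrays, all tested probes had a median difference of 0.28 in psae2 and 0.27 in the WT, numbers 1-2 higher, so the directions given here are relative to that common shift. As deposited 70 probes of 1 gene met the rule, all 70 of them higher in numbers 1-2. Not every gene higher in numbers 5-6 fell under 0.4 in size there. With psae2 first, AT3G51930 had -1.31 and -1.14, AT4G02800 -0.60 and -0.73, and AT3G57630 -0.80 and -0.44. These failed the rule's limit on the psae2 minus WT difference. In each set the deposited medians were also higher in psae2 than in the WT. None of the 20 genes called higher in numbers 5-6 changed sign as deposited, where their differences lay between -1.31 and -0.11 in psae2 and between -1.14 and -0.11 in the WT. Whether the fall of the medians plays a part in the members' differences was not tested.

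**Figure D1:**
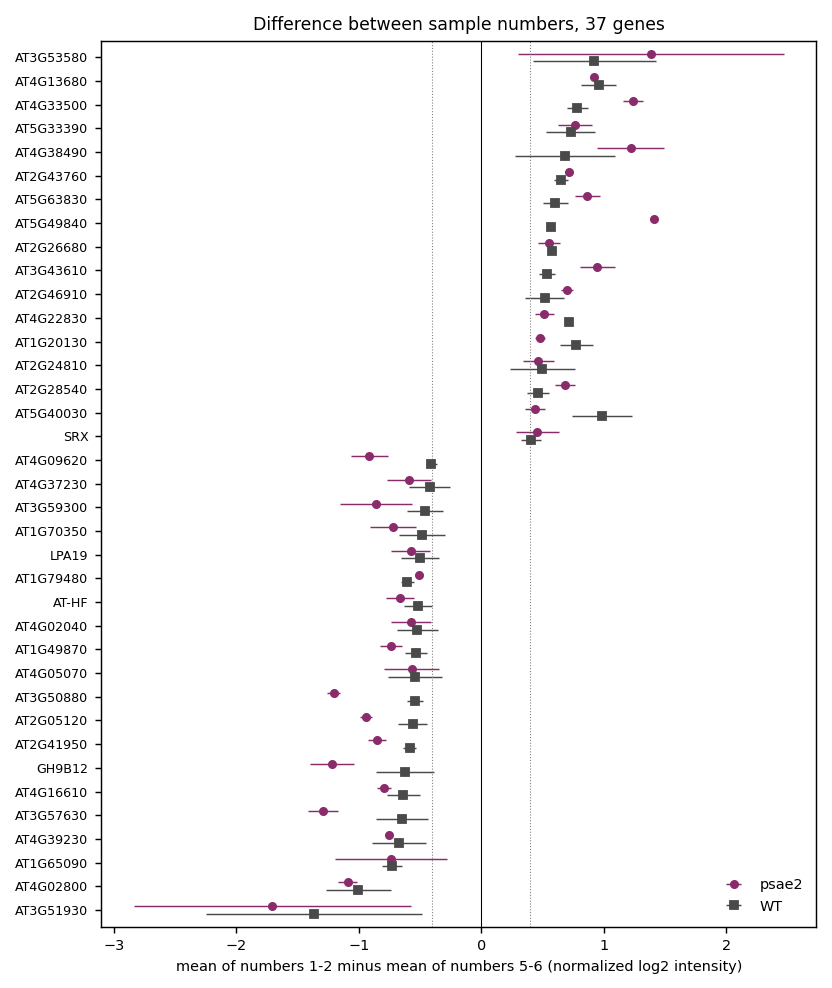
The difference in normalized log2 intensity, mean of numbers 1-2 minus mean of numbers 5-6, for each of the 37 genes in psae2 (circles) and WT (squares). Bars are standard errors from the 2 values of each end, dotted lines mark 0.4 in size, and AT3G53580 and AT3G51930 carry the widest bars. In psae2 30 of the 37 differences were larger, and the median size over all tested probes was larger there too (0.32 against 0.22).

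Among the 17 genes higher in numbers 1-2, the difference ran from 0.44 to 1.41 in psae2 (median 0.72) and from 0.41 to 0.99 in the WT (median 0.65). The 20 genes higher in numbers 5-6 had differences of -1.71 to -0.51 in psae2 (median -0.77) and -1.37 to -0.41 in the WT (median -0.55). The median size over all 37 was 0.76 in psae2 and 0.59 in the WT, beside 0.32 and 0.22 over all 3010 probes above the floor on at least 1 array. In 30 of the 37 the difference was larger in psae2, 11 of 17 in one direction and 19 of 20 in the other. All tested probes also spread more widely in psae2, with a standard deviation of the difference of 0.67 against 0.42 in the WT. Nothing particular to the members is therefore read from these counts. Both values of one end lay beyond both values of the other end in both genotypes in 36 members, the exception being AT3G53580. Over all tested probes 38.7% were separated in that way, and since the rule used these values nothing is read from the members' count.

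The share of probes that met the rule was 5.35% for probes of 1 gene, 7.59% for the 870 probes that list several genes and 5.38% for the 1877 that list none. Over the whole table it was 5.93%, or 204 probes. The 37 genes are therefore the named portion of a difference that appeared at a like rate among probes of every annotation class. Across the 3010 tested probes the psae2 and WT differences had a Pearson correlation of 0.46 (Spearman 0.46), a description over probes that share arrays. At the threshold, SRX (0.46 in psae2 and 0.41 in the WT) and AT4G09620 (-0.91 and -0.41) lay just inside. AT5G52970 (0.45 and 0.40 when rounded, 0.397 unrounded to 3 digits) and AT1G50020 (0.39 and 0.46) lay just outside.

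Taking first the genes higher in numbers 1-2, AT4G33500 encodes a protein phosphatase of the 2C class. In psae2 its level was 0.08 and -0.06 in numbers 1 and 2, -0.96 and -0.89 in numbers 3 and 4, and -1.19 and -1.26 in numbers 5 and 6. In the WT it was -0.24 and -0.27, then -0.86 and -0.92, then -0.95 and -1.13. Numbers 1 and 2 stood above all 4 later samples in each genotype, by 1.24 ± 0.08 over numbers 5-6 in psae2 and 0.78 ± 0.09 in the WT (SE from the 2 values of each end). Those are 2.36-fold and 1.72-fold.

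AT2G43760 encodes the large subunit of molybdopterin synthase, which makes the molybdenum cofactor. Its psae2 levels were -0.41, -0.47, -0.86, -0.87, -1.15 and -1.16 in numbers 1 to 6, and its WT levels were -0.55, -0.56, -1.01, -1.01, -1.26 and -1.15. The values formed 3 steps, and the genotypes kept to the same steps with a difference of 0.72 ± 0.03 in psae2 and 0.65 ± 0.06 in the WT.

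The ClpX-like gene AT5G49840, for an ATPase that feeds proteins to the Clp protease, had another course. In psae2 it read -0.50, -0.52, -0.32, -0.27, -1.93 and -1.90, and in the WT -0.63, -0.63, -0.26, -0.15, -1.22 and -1.18. Numbers 3 and 4 were the highest in both genotypes after scaling, and numbers 5 and 6 were far below the rest. As deposited, psae2 read 0.826, 0.814, 0.804 and 0.833 in numbers 1 to 4, so number 3 was not above numbers 1 and 2 there. The normalized difference was 1.41 ± 0.02 in psae2, the largest of the 17, and 0.57 ± 0.02 in the WT. At numbers 5-6 the psae2 mean was lower than the WT mean by a difference of -0.72, while at numbers 1-2 psae2 minus WT was 0.12 and at numbers 3-4 it was -0.10.

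AT3G53580 encodes diaminopimelate epimerase of lysine synthesis and ranked first by the smaller of the differences (1.39 ± 1.08 in psae2 and 0.92 ± 0.50 in the WT). Its values were scattered: -2.28, -0.59, -2.46, -3.14, -2.14 and -3.51 in psae2, and -1.88, -1.70, -2.19, -2.94, -2.22 and -3.21 in the WT. The ends overlapped in psae2, where number 1 lay below number 5. Without number 2 the psae2 difference was 0.54, and without number 1 it was 2.23. Without number 5 the WT difference was 1.41, and without number 6 it was 0.43, with 2.06 and 0.70 in psae2.

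AT4G22830 was by far the brightest member, with a mean level of 5.52 against a median of -1.57 over the 37. Its deposited intensity was 55.7, 56.4, 46.9, 47.0, 41.1 and 40.0 in psae2 numbers 1 to 6, and 56.6, 56.8, 49.995, 48.6, 37.9 and 34.3 in the WT. Numbers 1 and 2 were the brightest in both genotypes before any scaling, and after it the difference was 0.52 ± 0.07 in psae2 and 0.71 in the WT, where quantile normalization gave tied values within each set. With each array centred on its median instead, the difference was 0.12 in psae2 and 0.34 in the WT, under the threshold in both. SRX was dim and nearest the threshold, with deposited values of 0.404, 0.503, 0.331, 0.280, 0.238 and 0.267 in psae2 and 0.326, 0.362, 0.218, 0.242, 0.211 and 0.209 in the WT. Its numbers 1 and 2 were the highest in both genotypes, although in psae2 number 1 lay closer to number 3 than to number 2, and without number 2 its psae2 difference was 0.29.

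For the other genes of this direction both differences are given, psae2 first, in the order of the smaller of the 2. AT4G13680 had 0.92 and 0.96, AT5G33390 had 0.76 and 0.73, AT4G38490 had 1.22 and 0.68, and AT5G63830 had 0.87 and 0.60. AT2G26680 (0.55 and 0.58), AT3G43610 (0.95 and 0.54), the plastid lipid-associated fibrillin gene AT2G46910 (0.70 and 0.52) and AT1G20130 (0.48 and 0.78) followed. Last by that order were AT2G24810, for a thaumatin-like protein, with 0.47 and 0.50, AT2G28540 with 0.68 and 0.46, and the protein kinase gene AT5G40030 with 0.44 and 0.99, although its WT difference was the largest of the 17. Some of these values depended on 1 number or on the scaling. The WT difference of AT4G38490 was 0.35 without number 2 and 0.44 without number 5, and that of AT2G24810 was 0.24 without number 6 and 0.76 without number 5. With median centring the psae2 difference was 0.23 in AT5G40030 and 0.31 in AT1G20130. With the floor added to every value as an offset instead, the differences were 0.49 and 0.48 in AT5G33390, and the WT difference of AT2G24810 was 0.32. In AT5G40030, AT1G20130, AT4G22830, AT4G13680, AT2G26680 and AT2G24810 the WT difference was the larger one.

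**Figure D2:**
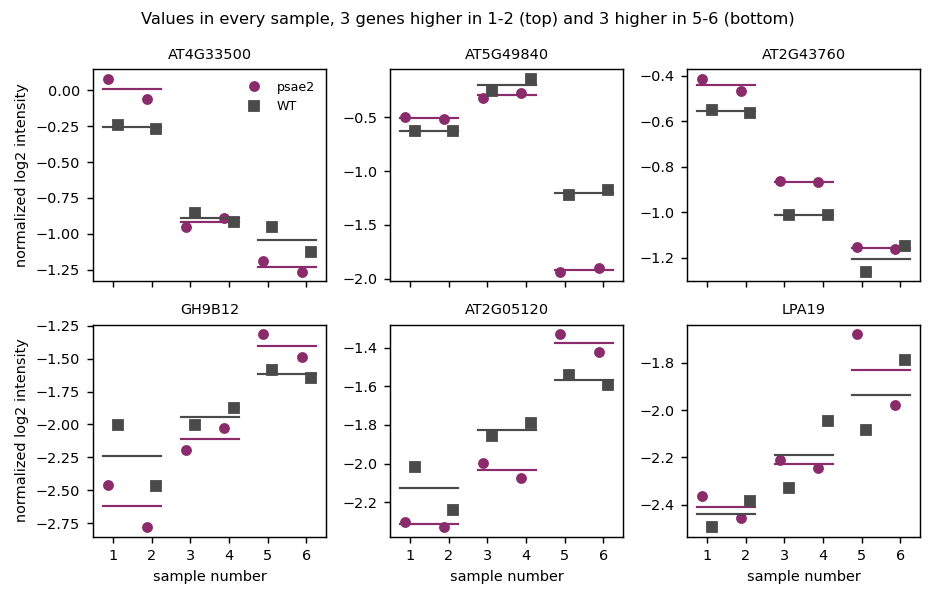
Normalized log2 intensity of 6 members in every sample against the sample number, psae2 as circles and WT as squares, with lines at the mean of each 2 consecutive numbers. The set means of AT4G33500 and AT2G43760 were lower and those of GH9B12, AT2G05120 and LPA19 higher in each later set, while AT5G49840 was highest in numbers 3 and 4 in both genotypes.

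Of the genes higher in numbers 5-6, AT3G51930, for a WD40-repeat protein, had the largest differences (-1.71 ± 1.13 in psae2 and -1.37 ± 0.88 in the WT), and 1 number made most of them. Its psae2 values were -3.64, -1.38, -0.87, -0.61, -0.86 and -0.75, and its WT values were -3.04, -1.28, -1.11, -1.34, -0.79 and -0.79. Number 1 stood far below the rest in both genotypes, at the floor in psae2. Without number 1 the difference was -0.58 in psae2 and -0.49 in the WT, and without number 2 it was -2.84 and -2.25.

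GH9B12 read -2.46, -2.78, -2.20, -2.03, -1.31 and -1.49 in psae2, and -2.004, -2.47, -2.01, -1.88, -1.58 and -1.65 in the WT. Its difference of -1.22 ± 0.18 in psae2 and -0.62 ± 0.23 in the WT came with psae2 below the WT at numbers 1-2 (-0.38) and above it at numbers 5-6 (0.22). Without number 2 the WT difference was -0.39. AT2G05120 encodes Nup133, a scaffold protein of the nuclear pore. Its levels were -2.30, -2.33, -1.997, -2.07, -1.33 and -1.42 in psae2, against -2.02, -2.24, -1.86, -1.79, -1.54 and -1.60 in the WT. Each later set of 2 numbers lay above the one before in both genotypes.

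The photosystem II gene LPA19 was dim and close in both genotypes. It read -2.36, -2.45, -2.21, -2.25, -1.68 and -1.98 in psae2 and -2.49, -2.38, -2.33, -2.05, -2.08 and -1.79 in the WT. Its difference was -0.58 ± 0.16 in psae2 and -0.50 ± 0.16 in the WT, while its overall psae2 minus WT difference was 0.03. AT-HF, of histidine synthesis, read -0.21, -0.25, 0.09, 0.10, 0.32 and 0.54 in psae2 and -0.16, -0.27, 0.31, 0.30, 0.20 and 0.40 in the WT. The 4 later WT values overlapped one another, so that in the WT the step lay between number 2 and number 3.

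Low signal touched 3 members. AT4G02800 was under the floor in numbers 1 and 2 of both genotypes, so its level there has only an upper bound and no fold is given. With the floor in place, numbers 1-2 minus 5-6 was -1.09 in psae2 and -1.003 in the WT after quantile normalization, -0.95 and -1.05 with median centring, and -0.60 and -0.73 as deposited. AT3G57630 was under the floor in number 2 of each genotype (differences -1.29 and -0.65, with -0.84 in psae2 under an offset and -1.02 in the WT with zeros missing), and AT3G51930 in psae2 number 1. The other 34 members were above the floor in all 12 samples. All 37 were above it in at least 1 sample, as were 603 of the 692 probes of 1 gene.

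The remaining genes of this direction are given in the order of the smaller of the 2 differences, psae2 first. AT1G65090 (-0.74 and -0.73), the isoflavone reductase-like gene AT4G39230 (-0.76 and -0.67), AT4G16610 (-0.79 and -0.64) and AT2G41950 (-0.85 and -0.59) came first. AT3G50880, for a DNA glycosylase-like protein, had -1.20 and -0.54, and AT4G05070 (-0.57 and -0.54), AT1G49870 (-0.74 and -0.53), AT4G02040 (-0.58 and -0.52) and AT1G79480 (-0.51 and -0.60) followed. AT1G70350 (-0.72 and -0.48), AT3G59300 (-0.86 and -0.46), AT4G37230 (-0.59 and -0.42) and AT4G09620 (-0.91 and -0.41) came last. In AT1G65090 the psae2 difference was -0.28 without number 1 and -1.20 without number 2. The WT difference was -0.30 in AT1G70350 without number 2 and -0.26 in AT4G37230 without number 5. AT1G79480 was the exception among the 20 in that its WT difference was the larger.

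Within a set of 2 consecutive numbers, the median size of the difference between the samples over the 37 genes was 0.15 for numbers 1 and 2, 0.12 for 3 and 4, and 0.11 for 5 and 6 in psae2, and 0.11, 0.11 and 0.13 in the WT. Over all tested probes these medians were 0.12, 0.10 and 0.11 in psae2, and 0.09, 0.10 and 0.12 in the WT. The number 1 minus number 2 difference, which the rule did not use, had the same sign in psae2 and WT in 28 of 37 members, beside 63.0% of all tested probes. For numbers 3 and 4 it was 19 members and 62.0%, and for numbers 5 and 6 it was 18 members and 60.8%. No test was run on these counts.

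Numbers 3-4 were not used to set the difference, and their place between the ends was described on a scale from 0, the mean of numbers 5-6, to 1, the mean of numbers 1-2. They lay between the ends in 31 of 37 members in psae2 and in 29 of 37 in the WT, and in 26 in both. These are 83.8%, 78.4% and 70.3%, beside 52.1%, 42.0% and 23.7% of all tested probes, and 76.0%, 69.5% and 56.9% of the 167 probes of several genes or none that met the same thresholds. Ends chosen to lie far apart hold more values between them, so nothing is read from the members' count. The median place was 0.406 in psae2 and 0.315 in the WT, so numbers 3-4 were nearer to numbers 5-6 in 21 members in psae2 and in 25 in the WT. AT5G49840 (1.15 in psae2 and 1.75 in the WT) and AT1G79480 (1.15 and 1.18) lay beyond numbers 1-2 in both genotypes, and AT5G63830 (-0.05 and -0.50) beyond numbers 5-6 in both.

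**Figure D3:**
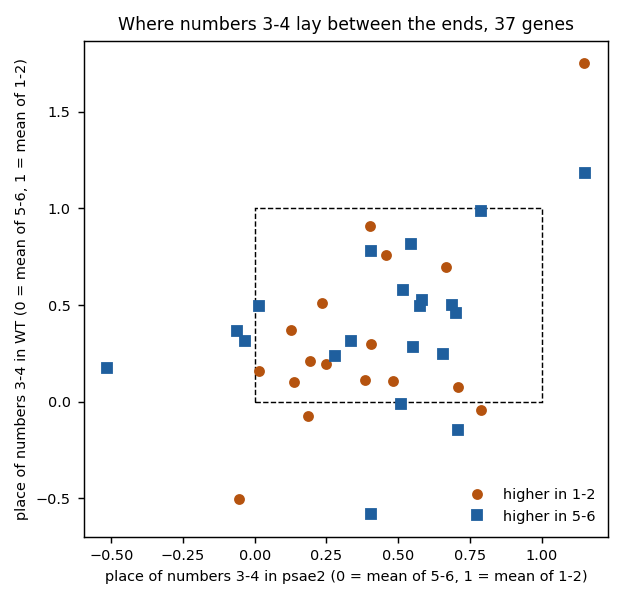
The place of numbers 3-4 between the means of numbers 5-6 (0) and 1-2 (1), psae2 on the horizontal axis and WT on the vertical, for the 17 genes higher in numbers 1-2 (circles) and the 20 higher in 5-6 (squares). The dashed square, which holds 26 of the 37, marks numbers 3-4 between the ends in both genotypes, and AT5G49840 is the point at the upper right.

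A test of numbers 3-4 against the mean of both ends does not use the difference between the ends, though its error term holds the genotype difference in that shift, which the rule did use. Limma was fitted to the 6 means of 2 numbers, with genotype as a covariate. Of 3009 entries 3 passed (0.0997%), 268 had an unadjusted p under 0.05 (8.91%), and 0 of the 37 members passed, 7 of them with an unadjusted p under 0.05. The smallest adjusted p of a member was 0.411 in limma, for AT5G63830 with a difference of -0.54. With the 12 samples as separate values 245 entries passed (8.14%) and 4 members did: AT5G49840 was higher in numbers 3-4 by 0.81 (4.35% of entries were called higher), and AT5G63830 (-0.54), AT1G79480 (-0.37) and AT4G13680 (-0.36) were lower (3.79% of entries). That fit treats consecutive numbers as independent. The median of this difference was -0.14 over the genes higher in numbers 1-2 and 0.03 over those higher in 5-6, beside -0.01 over all entries.

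For psae2 minus WT over 12 samples, the comparison the study was set up for, limma passed 671 of 3009 entries (22.3%) and 0 of the 37 members. In that fit 1074 of the 3009 entries and 0 of the 37 members had an unadjusted p under 0.05. The rule kept members with a small difference here, so nothing is read from that. With the sample number as a block 1010 entries passed (33.6%) and 1 member did, AT2G26680, with an adjusted p of 0.0103 in limma. Its psae2 minus WT difference of -0.24 was just under the rule's limit of 0.25 in size. Its psae2 mean was below its WT mean by nearly the same amount in each set, at -0.26 for numbers 1-2, -0.25 for 3-4 and -0.23 for 5-6. The fits with and without the block treat consecutive numbers as independent. With the numbers of a set averaged, 79 entries passed (2.63%) and 0 members, and AT2G26680 had an adjusted p of 0.582 in limma. Elsewhere the genotype difference moved with the numbers. In AT3G50880 it was -0.52, -0.27 and 0.15 in the 3 sets, and in AT4G09620 it was -0.05, 0.21 and 0.45.

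The members' direction went with the probe number in the deposited table, a feature the rule did not use. Probe numbers ran from 1 to 4607, and the labels do not say whether they follow the layout of the array, whose part in this was not tested. Under number 300, 6 members were higher in numbers 1-2 and 0 were higher in 5-6. From 300 up to 1900 these counts were 0 and 14, from 1900 up to 3600 they were 11 and 1, and from 3600 on they were 0 and 5. The exception was AT4G39230, probe 2116. The limits of these 4 stretches were chosen after the values were seen.

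Probes that list several genes or none, which hold no member, shifted along the same stretches. Their median differences, psae2 first, were 0.25 and 0.15 under number 300, -0.35 and -0.09 from 300 up to 1900, 0.12 and 0.09 from 1900 up to 3600, and -0.08 and -0.09 from 3600 on. The rule's thresholds were met by 20 such probes higher in numbers 1-2 and 2 higher in 5-6 in the first stretch, by 5 and 48 in the second, by 48 and 14 in the third and by 8 and 22 in the last. In windows of 100 probe numbers that held at least 20 such probes, their medians had the same sign in both genotypes in 37 of 46 windows. The window from 200 was the highest in both (0.76 in psae2 and 0.44 in the WT), and the window from 600 was the lowest of the 46 (-0.60 and -0.26). The last window, from 4600, held 3 such probes with medians of -0.74 and -0.39 and is not among the 46.

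**Figure D4:**
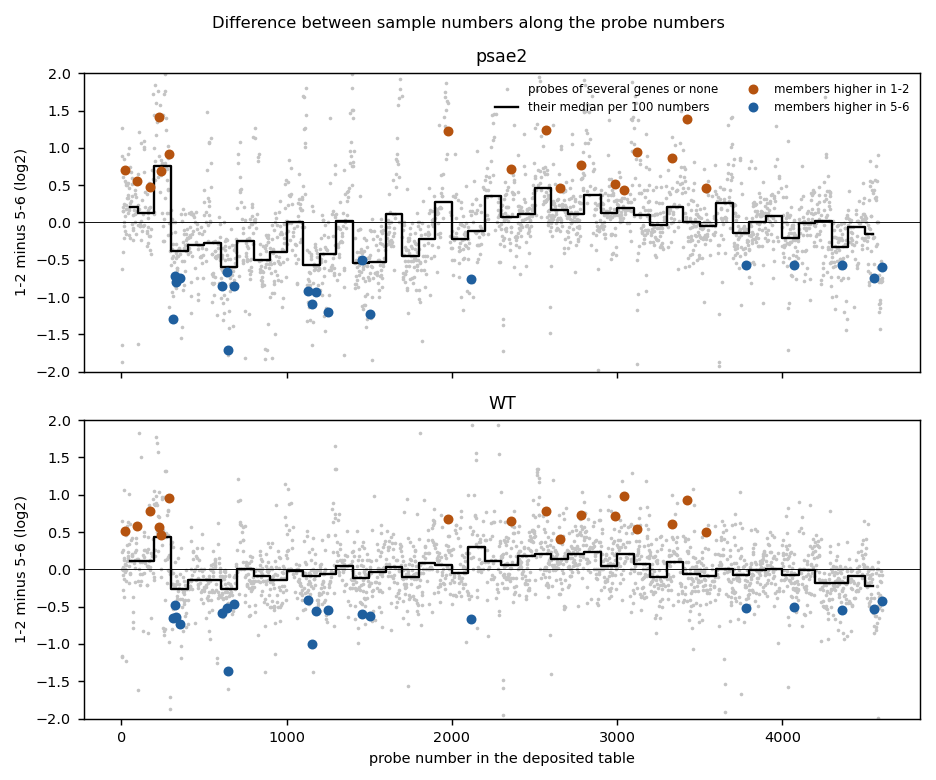
The difference between numbers 1-2 and 5-6 on the log2 scale against the probe number, psae2 above and WT below, for tested probes of several genes or none (grey), their median per 100 numbers (black line) and the members (coloured). Points beyond 2 in size, 50 in psae2 and 6 in the WT, fall outside the axes, and the members above 0 sit under number 300 and between 1900 and 3600.

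Each member was then set beside the tested probes of several genes or none within 50 numbers of it, 31 to 62 probes. The median of these neighbours had the member's sign in both genotypes for 33 of 37 members (14 of 17 and 19 of 20), or 89.2%, beside 52.9% of all tested probes of 1 gene and 69.6% of the 395 whose own difference had 1 sign in both genotypes. The rule fixed the members' own signs and did not use the neighbours. It also chose members for large differences, and neither comparison share was matched for size, so nothing is read from the 89.2%. The exceptions were AT3G53580 (neighbours at 0.06 in psae2 and -0.05 in the WT), AT4G13680 (-0.01 and -0.05), AT2G24810 (-0.08 and -0.13) and AT4G39230 (-0.18 and 0.12). Over the 603 tested probes of 1 gene the Pearson correlation between a probe's difference and that of its neighbours was 0.55 in psae2 and 0.41 in the WT, a description over probes that share arrays.

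With the neighbours' median taken off in every sample, 13 of the 37 still met the rule and 16 other probes of 1 gene came in. The 13 were AT3G53580, AT4G13680, AT4G33500, AT4G38490, AT2G43760, AT5G63830 and AT2G24810 on one side, and AT3G51930, AT4G02800, AT4G39230, AT3G57630, AT4G02040 and LPA19 on the other. AT4G13680 was left at 0.92 in psae2 and 1.04 in the WT, AT2G43760 at 0.63 and 0.61, and LPA19 at -0.42 and -0.44. Not every member that dropped out lost its difference between the ends. AT3G43610 kept 0.72 in psae2 and 0.48 in the WT, GH9B12 -0.56 and -0.53, and AT3G50880 -0.86 and -0.45. These genes failed only the rule's limit on the overall psae2 minus WT difference. After the subtraction that difference was 0.30 in AT3G43610, -0.28 in GH9B12 and -0.28 in AT3G50880. By contrast AT2G28540 went to -0.13 and -0.02, SRX to 0.27 and 0.24, AT-HF to -0.04 and -0.23 and AT4G37230 to -0.09 and -0.06. For AT5G49840 the psae2 difference was 0.57 and the WT difference 0.10. The median size over the 37 became 0.42 in psae2 and 0.45 in the WT, so the psae2 median was not the larger one on that scale.

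A repeat was also present along the probe numbers. Of 677 repeat lengths from 24 to 700 numbers, tried after the values were seen, 286 accounted for the largest share of squared variation of the difference in psae2 (24.8%, and 24.5% at 288) and 288 in the WT (6.94%), beside medians over all lengths of 2.05% and 1.67%. These shares come from probes of several genes or none, sorted into 24 classes of place, with values limited to 1.5 in size. In 12 classes of 24 places their median ran from -0.25 to 0.63 in psae2, highest at places 217 to 240, and from -0.13 to 0.16 in the WT, highest at places 169 to 192. At places 217 to 240 the WT median was -0.12, opposite in sign to psae2. The lowest psae2 median lay at places 265 to 288, where 2 members were higher in numbers 1-2 and 1 was higher in 5-6. The stretches named next were also chosen after the values were seen. Members higher in numbers 5-6 lay at places 1 to 120 in 17 of 20 cases, where 41.3% of tested probes of 1 gene lie. Those higher in numbers 1-2 lay at places 145 to 288 in 11 of 17 cases, where 52.1% lie.

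**Figure D5:**
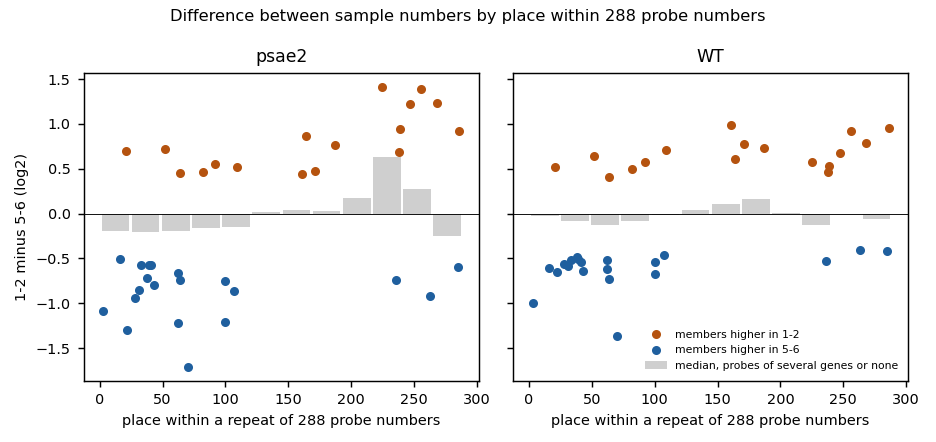
The difference between numbers 1-2 and 5-6 on the log2 scale by place within a repeat of 288 probe numbers, psae2 at left and WT at right. Bars are medians of probes of several genes or none in 24 places each, points are the members, and the members below 0 gather at places 1 to 120, where the psae2 bars are below 0.

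In function and gene position the members shared little by the counts made here. Over 26 gene lists, 23 genes were measured by a single-gene probe, and 2 of these were members: LPA19 from 4 measured genes of photosystem II, and AT-HF from 3 of amino acid, nitrogen and sulfur metabolism. The other 9 lists with a measured gene had 0 members, and 15 lists had 0 measured genes. The lists are not complete, since AT3G53580, of lysine synthesis, and SRX, which acts on peroxiredoxins, are in none of them. They cannot show whether the members share a function. By locus code 12 of the 37 lie on chromosome 4 (32.4%, beside 17.3% of all probes of 1 gene), 8 on chromosome 2 (21.6%, beside 17.9%), 7 on chromosome 1 (18.9%, beside 25.1%), 6 on chromosome 3 (16.2%, beside 18.8%) and 4 on chromosome 5 (10.8%, beside 20.7%). In the gene order of the reference, 0 pairs of members were next to each other and 0 were within 5 genes. The mean level of the 37 had a median of -1.57, beside -1.28 over tested probes of 1 gene, and 21 of 37 lay below that of the tested probes.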

How the data were processed

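The deposited table gave intensity values on a linear scale, which the authors made by steps not given in the sources used here. Genotype and number came from the sample titles, and 12 of 12 columns belonged to a sample. Deposited sums ran from 2972 to 3610 per sample and zeros from 11.9% to 13.7%. The number of arrays limits the precision. Probe genes came from the platform annotation, and 690 of 692 probes of 1 gene matched the reference table (TAIR10.1). Values were floored at the 5th percentile of positive values, log2-transformed and quantile-normalized in R 4.3.3. Limma 3.58.1 (lmFit, eBayes, Benjamini-Hochberg, 0.05) was run on 3009 entries, leaving out 429 probes under the floor throughout and averaging the gene with 2 probes. The genotype fit without a block and the fit of numbers 3-4 on means of 2 numbers were tested on simulated data. Those data had independent noise in every sample, with no shift between sets and no likeness of consecutive or same-numbered samples. They cannot show how such likeness affects the calls. Figures used matplotlib 3.10.9.

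Samples of the same number in the other genotype had correlations of 0.34 to 0.53 in their deviations from group means. There 12 of 12 correlated best with their own number, so the numbers pair the samples, from the data and not the labels. Within sets of consecutive numbers the correlations ran from 0.24 to 0.71, so samples of a set were also alike. P-values measure the spread between these samples, which may be technical. The members, lists and tests were chosen with earlier results of these data known. Named were the 10 genes ranked first in each direction by the smaller difference, the genes at the threshold, list members and genes with a symbol. All other members were named too, after their values were seen. Alternatives covered scaling, floor, thresholds, blocks, averaging and left-out numbers. Sequences were not used here.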

Additional observations from a re-analysis of the deposited data

Results flagged for a closer look

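Each genotype's 6 values were checked for 1 sample set apart from the others, in 80 sets for the 37 genes and 3 measures of the arrays. For 6 independent values chance alone gives about 1 in 20. The rule chose the genes for ends far apart and consecutive numbers may be repeats, so that rate is no reference here. In all 2 sets were noted. Both were AT3G51930 in samples numbered 1, so they are not separate cases. In psae2 sample 1 the gene was at -3.641, with the other psae2 samples between -1.38 and -0.61. In WT sample 1 it was at -3.037, with the other WT samples between -1.34 and -0.79. The gap took 0.747 of the range in psae2 and 0.756 in the WT. As deposited its intensity was 0.0684 in psae2 sample 1 and 0.118 in WT sample 1. No cause was tested.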

How the results depend on the processing

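The 37 members (17 higher in numbers 1-2, 20 in 5-6) became 70 as deposited (70 and 0), 69 at a difference of 0.3 (32 and 37), and 61 with no limit on psae2 minus WT (35 and 26). With an offset 13 were higher in 5-6, with a limit of 0.15 there were 9 higher in 1-2, and with neighbouring probes' median subtracted, an alternative chosen after seeing the data, 8 were higher in 5-6. The share higher in 1-2 was 45.9%, 100% as deposited, 56.7% with the offset and 72.4% with neighbours subtracted. A looser limit raises a count by construction, and otherwise the cause was not tested. With 1 number left out of both genotypes the counts were 36 to 52 in all, 16 to 29 higher in 1-2 (29 without number 6) and 18 to 23 higher in 5-6. Of the 37, 31 were also chosen with median centring, 34 with zeros missing, 28 with the offset and 11 as deposited. Leaving out numbers 1 to 6 in turn kept 30, 29, 36, 34, 29 and 30 of the 37, so the totals above include other genes. Of 666 recomputed differences of single genes 3 changed sign, all with neighbours subtracted: AT2G28540 (-0.128 in psae2, -0.0228 in the WT) and AT1G79480 (0.095 in psae2). For psae2 minus WT the 671 entries became 1010 with the replicate block, 79 with numbers of a set averaged, 181 with a random block and 468 to 574 with 1 number left out. The 0 members became 1 with the replicate block and 1 as deposited, and stayed 0 with 1 number left out. No share of all entries is given for the values as deposited, so nothing is read from the 1 member there. The block changed no other member's call. For numbers 3-4 the 3 entries became 245 with 12 separate values (4 members), 1 with the offset or no filter on dim probes, 0 with median centring, as deposited or with zeros missing, and 0 to 3 with 1 number left out, with 0 members there. Low signal limits AT4G02800, AT3G57630 and AT3G51930.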
